A study of Mus musculus with 26 samples.

Results

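All 31935 regions of the H3K4me3 table of the wild-type (WT) embryonic stem cell clones were compared between K4-K27 reChIP and in-line total H3K4me3, using 4 of the 26 libraries of the series. The regions are every row of that table, of 338442 rows in 12 region tables. K4-K27 reChIP is a sequential immunoprecipitation in which chromatin pulled down with an antibody against H3K4me3 was released and pulled down again with an antibody against H3K27me3, and total H3K4me3 is the portion (10% of the eluate) set aside after the first pull-down of the same clone. The comparison asks which promoters and genes gained or lost representation at the H3K27me3 step. Within each clone the total H3K4me3 value was subtracted from the K4-K27 value after each library had been centred on its own median region, so a difference of 0 marks a region that kept its level relative to the median region, and a positive difference a region that gained on it.

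Both WT clones, 57 and 58, were derived from E14 mouse embryonic stem cells and are each a single clonal line, grown without feeders in serum and LIF. Clones 43 and 53 carry a double knockout of Dppa2 and Dppa4 (DKO) in the same line, and uncloned E14 cells were profiled in 2 replicates; the DKO and E14 libraries entered the comparisons below only as separate repeats of the contrast. Chromatin was cross-linked and digested with MNase to mostly single nucleosomes, and all clone libraries belong to 1 labelled sequencing batch. The H3K4me3 antibody, Millipore 07-473, has also been reported to bind H3K4me2. With 2 clones a group, each p-value rests on a spread between clones that was pooled over regions, and a bulk library cannot tell fewer marked cells or alleles from fewer marked nucleosomes in each.

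H3K4me3 is laid down at active and CpG-rich promoters by COMPASS (Set1 and MLL) complexes, and H3K27me3 by Polycomb repressive complex 2, which silences developmental genes. Promoters that carry both marks are called bivalent and are known in embryonic stem cells mainly at regulators of lineage choice, which are kept at low expression until differentiation. A sequential pull-down retains fragments on which both marks sit together, so promoters with H3K4me3 alone lose representation relative to bivalent ones.

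The promoters on which the results turn differ in how many CpG dinucleotides they hold, and 6 of them are shown for that reason. Each stretch covers 250 bases before to 50 bases after the start site (RefSeq, GRCm38.p6, the build of the deposited coordinates), is written 5′ to 3′ along the gene's strand, and has every CG in capitals. Nkx2-4, Hoxd8 and Sox21 were called higher in K4-K27, Sox2 and Gapdh were called in neither direction, and Acot7 was called lower. For Hoxd8 and Acot7 the stretch lies at another start site inside the same region than the one assigned to the region here.
Nkx2-4 (chr2:147085296-147085595, minus strand): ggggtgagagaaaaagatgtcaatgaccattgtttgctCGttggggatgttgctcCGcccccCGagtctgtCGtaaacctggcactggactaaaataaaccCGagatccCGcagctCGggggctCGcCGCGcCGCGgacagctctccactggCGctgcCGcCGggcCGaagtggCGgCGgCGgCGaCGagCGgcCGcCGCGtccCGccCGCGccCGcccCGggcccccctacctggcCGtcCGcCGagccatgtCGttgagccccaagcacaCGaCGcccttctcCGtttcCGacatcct
Hoxd8 (chr2:74704365-74704664, plus strand): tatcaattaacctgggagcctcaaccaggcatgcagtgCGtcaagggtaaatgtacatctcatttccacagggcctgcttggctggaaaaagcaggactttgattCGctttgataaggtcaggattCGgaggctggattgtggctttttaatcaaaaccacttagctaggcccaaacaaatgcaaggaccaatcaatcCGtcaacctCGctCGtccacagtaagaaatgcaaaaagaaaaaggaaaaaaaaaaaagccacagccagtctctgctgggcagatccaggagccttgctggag
Sox21 (chr14:118236981-118237280, minus strand): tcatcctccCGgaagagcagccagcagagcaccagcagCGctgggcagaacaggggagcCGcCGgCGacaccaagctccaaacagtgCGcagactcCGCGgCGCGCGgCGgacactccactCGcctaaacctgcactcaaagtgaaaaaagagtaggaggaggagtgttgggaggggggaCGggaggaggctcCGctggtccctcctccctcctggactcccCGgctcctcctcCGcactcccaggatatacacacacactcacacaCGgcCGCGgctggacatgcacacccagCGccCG
Sox2 (chr3:34649745-34650044, plus strand): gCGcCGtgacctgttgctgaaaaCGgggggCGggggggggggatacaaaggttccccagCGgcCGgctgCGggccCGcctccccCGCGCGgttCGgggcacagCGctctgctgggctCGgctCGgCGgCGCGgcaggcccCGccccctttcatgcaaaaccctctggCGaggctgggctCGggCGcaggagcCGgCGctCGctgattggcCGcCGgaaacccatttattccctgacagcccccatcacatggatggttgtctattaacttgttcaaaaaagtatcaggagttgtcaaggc
Gapdh (chr6:125165724-125166023, minus strand): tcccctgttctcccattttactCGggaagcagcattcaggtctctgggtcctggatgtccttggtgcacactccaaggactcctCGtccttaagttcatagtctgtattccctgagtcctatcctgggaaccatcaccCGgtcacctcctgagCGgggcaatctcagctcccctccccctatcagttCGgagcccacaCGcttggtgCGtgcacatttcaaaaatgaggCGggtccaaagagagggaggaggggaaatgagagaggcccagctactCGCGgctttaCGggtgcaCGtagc
Acot7 (chr4:152185358-152185657, plus strand): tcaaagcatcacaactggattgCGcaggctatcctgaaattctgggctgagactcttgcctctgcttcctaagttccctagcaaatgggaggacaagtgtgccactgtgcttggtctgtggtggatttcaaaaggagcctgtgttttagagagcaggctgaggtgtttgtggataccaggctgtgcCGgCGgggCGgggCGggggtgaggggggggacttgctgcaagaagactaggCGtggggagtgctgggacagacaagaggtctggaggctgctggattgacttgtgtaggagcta
The stretches hold 38, 6, 22, 27, 12 and 6 CG in that order. Of 27025 RefSeq promoters of this length 94.2% hold at least 1 CG, with a median of 7. Sox2, which was not called, holds more CG than Hoxd8 and Sox21, which were called higher, so the count in this window does not order these 6 promoters by call.

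Library size ranged from 9242970 to 18918370 reads, and the median region held 125 and 55 reads in total H3K4me3 of clones 57 and 58 against 43 and 34 reads in K4-K27. No region was empty in the total H3K4me3 libraries, whereas 1580 and 1337 regions had no read in K4-K27 of clones 57 and 58. Since these are H3K4me3 regions of the same clones, a region empty in total H3K4me3 would hardly be among them. This contrast is therefore not a result. The ES cell label was checked at promoters: all 10 embryonic stem cell markers had a promoter region, with median centred total H3K4me3 of 1.23 and 0.89, and of the fibroblast markers 3 of 7 had one (median 0.36 and 0.16), with none at Col3a1, Postn, Lum and Dcn. Of the neural markers 5 of 5 had a region (median 0.72 and 0.36) and of the endoderm markers 3 of 5 (−0.12 and −0.19).

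K4-K27 was higher than total H3K4me3 at 4016 regions (12.6% of all regions) and lower at 463 (1.45%), by limma with the clone as a block (log2 difference above 1, p adjusted by Benjamini-Hochberg under 0.05). The median difference at regions called higher was 1.55 in clone 57 and 1.77 in clone 58. Both clones had the same sign at 4014 of the 4016 regions called higher, at 460 of the 463 called lower and at 72.8% of all regions; among called regions the call itself nearly fixes this. Of the 3415 regions above 1 in both clones 3414 were called, and of the 2796 below −1 in both 379. Over all regions the differences of the 2 clones had a Pearson r of 0.55 and a Spearman rho of 0.61 (31935 regions, which share libraries and depth and are not independent).

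**Figure D1:**
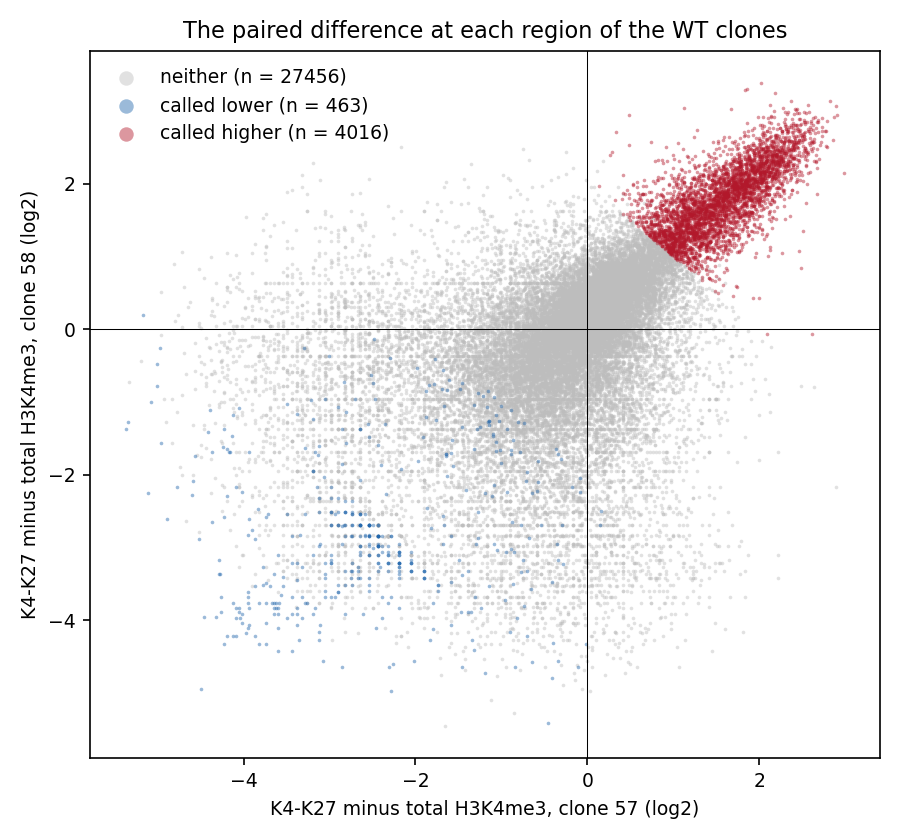
Difference between K4-K27 and total H3K4me3 (log2, each library centred on its median region) in clone 57 (x axis) and clone 58 (y axis), 1 point a region, in red where called higher, blue where called lower and grey otherwise. The 4016 regions called higher form a compact cloud near the diagonal, whereas the 463 called lower are scattered and lie on steps set by single reads.

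With 1 residual degree of freedom a region, the fit replaced each region's own variance by the trend over all regions, and with limma's variance trend and robust option both switched off no region passed the adjusted threshold, although 3962 were higher and 3612 lower at an unadjusted p under 0.05 past the same fold. Without replicate 57 or 58 of either kind of library, the count called higher stayed between 3264 and 4496, but the count called lower ran from 5 to 5387: it was 11 without the total H3K4me3 library of clone 57, 5 without that of clone 58, 5236 without K4-K27 of clone 57 and 5387 without K4-K27 of clone 58.

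Regions called higher were mostly promoters. A promoter was taken as 1.5 kb on either side of a RefSeq start site; 3167 of the 4016 regions (78.9%) lay at one, against 40.4% of regions called in neither direction and 9.07% of those called lower (42 of 463). Read the other way, 22.2% of the 14292 promoter regions were called higher and 4.81% of the 17643 others. Regions called higher were also wider (median 2100 bp, against 1650 bp in neither direction and 900 bp called lower) and richer in CpG, with a median of 5.12 CpG per 100 bp against 2.40 and 1.53. Their median observed/expected CpG ratio was 0.617, against 0.372 and 0.257. In the highest quartile of that ratio 34.2% of regions were called higher, and in the lowest quartile 0.138%.

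Total H3K27me3 measured in separate in-line libraries of the same clones was high at the same places. Its centred level had a median of 2.83 and 2.16 in clones 57 and 58 at regions called higher, and of −0.43 and −0.20 at regions called lower. The reverse reChIP, K27-K4, had medians of 3.94 and 3.15 at regions called higher and −1.30 and −0.96 at those called lower. The only IgG-IgG control, from clone 57, moved the same way, with medians of 0.69, −0.14 and −1.14 at regions called higher, in neither direction and lower. Over deciles of IgG-IgG the share called higher climbed from 3.16% in the lowest to 29.3% in the highest, and the difference had a Pearson r of 0.34 and 0.38 with it in clones 57 and 58 across 31935 regions; its part in the result was not tested.

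Of the regions called higher, 69.1% (2777) overlapped a region of the WT total H3K27me3 table by at least 1 bp, against 8.06% of regions in neither direction and 1.51% of those called lower. The share called higher differed with both features: it was 70.3% at promoters inside an H3K27me3 region (2119 of 3013), 33.2% inside such a region away from promoters, 9.29% at promoters outside one (1048 of 11279) and 1.22% where neither held. The 1239 regions called higher that overlapped no H3K27me3 region still had high total H3K27me3, with medians of 2.39 and 1.80. Their IgG-IgG median in clone 57 was also high, at 1, against 0.52 at the 2777 inside. The part of this background was not tested. Among the 5783 regions of the highest CpG quartile outside H3K27me3 regions, 15.7% were called higher, against 82.9% of the 2201 inside.

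**Figure D2:**
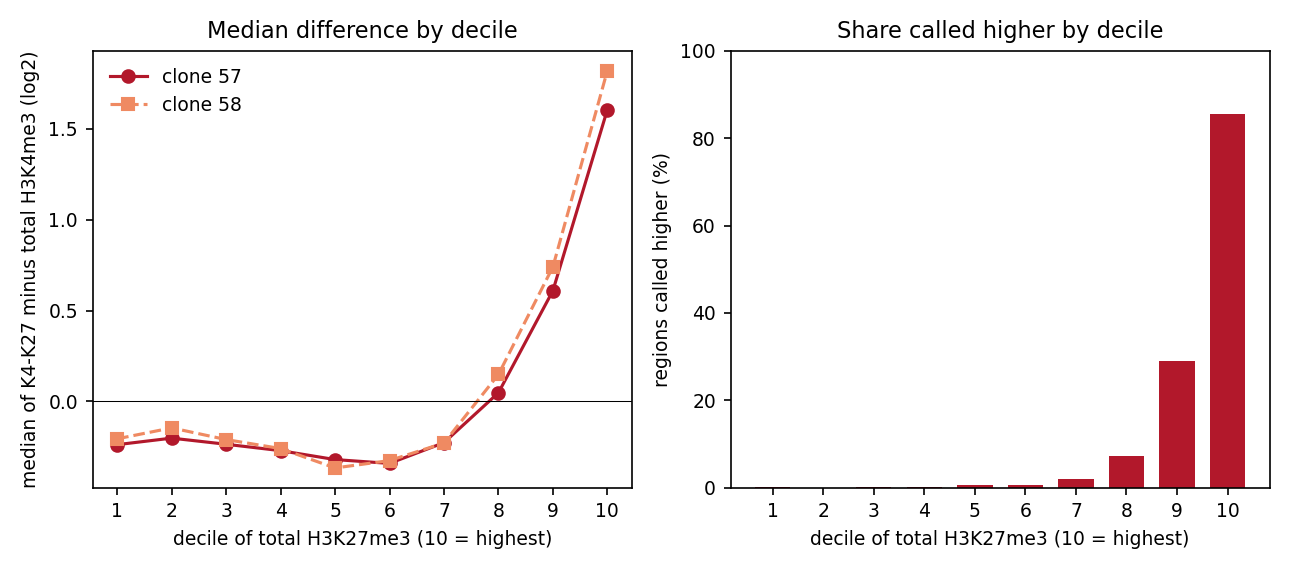
Regions in deciles of mean centred total H3K27me3 of the WT clones (x axis), with the median difference between K4-K27 and total H3K4me3 in each clone (left, log2) and the share of regions called higher (right, percent). Both stay flat over the lower 7 deciles and then climb, from 7.33% called higher in the 8th decile to 29.1% in the 9th and 85.5% in the 10th.

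The relation to H3K27me3 was not gradual. Over the lowest decile of total H3K27me3 the median difference was −0.24 and −0.21 in clones 57 and 58, and it was no nearer 0 in the 6th decile (−0.34 and −0.33). In the 10th it was 1.61 and 1.82. Across all regions the difference had a Pearson r of 0.42 with total H3K27me3 of the same clone in both clones and of 0.54 and 0.59 with the CpG ratio, as descriptions over 31935 regions that share libraries; the K4-K27 library enters 1 side only.

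At the gene level 15767 of 26180 RefSeq genes had a region at a promoter, and each was given its nearest region. Of these genes 3326 were higher (21.1%) and 37 lower (0.235%), with a median difference of 0.33. The 12 protein-coding promoters with the largest gain spanned a narrow range of 2.76 to 2.98, and include genes of neurons, germ cells and growth control.

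Rbm46, which encodes an RNA-binding protein needed in germ cells, had centred total H3K4me3 of 0.54 and 0.00 and K4-K27 of 3.37 and 3.14 in clones 57 and 58, at chr3:82875601-82876800. Ank1, which encodes an ankyrin that ties the spectrin skeleton to the membrane, had 0.70 and 0.21 in total H3K4me3, and K4-K27 stood 2.89 and 3.07 above these. Both promoters stood at or moderately above the median region in total H3K4me3 and far above it in K4-K27, and neither clone's values overlapped between the kinds of library. The difference was 2.98 ± 0.20 (SE from the spread pooled over regions, 2 clones, limma adjusted p = 6.1e-47) for Rbm46. It was 2.98 ± 0.20 (adjusted p = 6.1e-47) for Ank1.

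The homeobox gene Nkx2-4, whose promoter is printed above with 38 CG, lies in a region at chr2:147083251-147086100. Its total H3K4me3 was 0.76 and 0.42 and its K4-K27 3.62 and 3.35, the latter from 918 and 607 reads. Its difference was 2.90 ± 0.20 (adjusted p = 6.2e-44). Insm2, which encodes a zinc finger protein, had the highest K4-K27 levels of the 12, 3.98 and 3.78, over total H3K4me3 of 1.08 and 0.83 (difference 2.93).

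Genes of growth and calcium signalling were also among the 12. Grb10, an imprinted gene for an adaptor of growth factor receptors, had a difference of 2.83, Nrg3, a ligand of ERBB4, 2.83, and Nfatc1, a transcription factor of calcium signalling, 2.78. Neurotransmitter receptors were represented by Grm4, a metabotropic glutamate receptor (2.77), and Gabra5, a GABA-A receptor subunit (2.77). The remaining genes were Nr2f1, an orphan nuclear receptor (2.82), Slc9a2, a sodium-hydrogen exchanger (2.79), and Begain, a partner of synaptic scaffold proteins (2.76). In each of the 12, both K4-K27 values were above both total H3K4me3 values, which their choice by size nearly fixes. Total H3K27me3 ranged upward from 2.53 in clone 57 and 1.89 in clone 58 (both Nr2f1). Insm2 and Grm4 overlapped no H3K27me3 region.

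**Figure D3:**
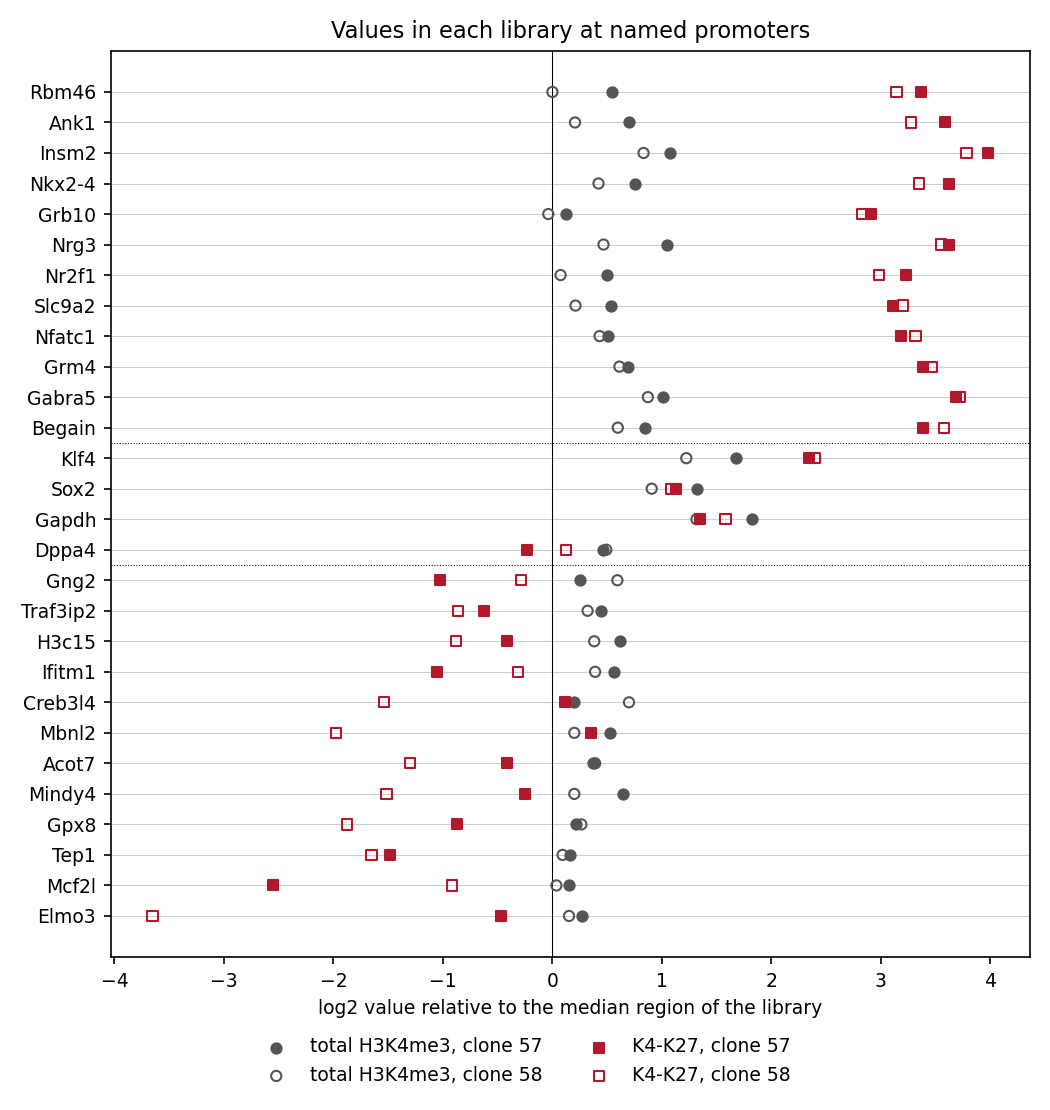
Centred log2 value in the 4 libraries (x axis; circles total H3K4me3, squares K4-K27; filled clone 57, open clone 58) at the 12 promoters with the largest gain, 4 reference promoters and the 12 with the largest loss (y axis). At the upper 12 the squares lie together between 2.83 and 3.98, while at the lower 12 the 2 clones are often far apart.

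Away from promoters the 5 largest gains had much the same size. The first lay within Macrod1 at chr19:7164301-7167300 (2.79), another within Nrg1, the gene of neuregulin 1, at chr8:32883001-32885400 (2.69). The other 3 overlapped Dmrta2 at chr4:109981501-109983300 (2.73), Tmem200c at chr17:68840251-68842500 (2.72) and Arhgap36 at chrX:49493401-49494600 (2.71), 3476, 3115 and 22951 bp from the nearest start site. At the Dmrta2 region total H3K4me3 was −0.28 and 0.01 and K4-K27 2.57 and 2.61, so the region stood near the median in total H3K4me3 and well above it in K4-K27. Of the 4016 regions called higher, 849 lay away from promoters.

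Most promoters in 13 lists of transcription factor, signalling, axon guidance, potassium channel and neurotransmitter receptor genes were called higher. They are called the developmental lists for short, although the channel and receptor genes are not developmental regulators as such. Of 438 genes with a promoter region 331 were higher (75.6%, beside 21.1% of all genes) and none was lower, with a median difference of 1.75. Over 8 lists of housekeeping genes, 4 of 448 were higher and none lower (0.893%), with a median of 0.09. At an unadjusted p under 0.05 limma put 4 developmental and 7 housekeeping genes below 0, and limma with voom weights on the reads recovered from the table also called none lower. The medians of the 13 developmental lists were above 0 under every alternative in which they could be taken (0.46 to 2.80; 12 lists had one over regions that overlap an E14 region), whereas those of the housekeeping lists took either sign with the scaling (−0.58 to 0.85).

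Hox genes set position along the body axis. All 15 of the 39 Hox genes with a region were higher, with a median of 2.16, and the highest was Hoxd8 at 2.62. Hoxd8 had total H3K4me3 of 0.40 and 0.31 and K4-K27 of 2.93 and 3.02, in a region at chr2:74703901-74706300 (adjusted p = 4.6e-37). The window printed above lies at another of its start sites and holds 6 CG, and the region as a whole had an observed/expected ratio of 0.912.

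The Pax genes, regulators of eye, neural and muscle fate, were higher at 7 of 7 (median 1.70), from Pax6 (1.44) to Pax3 (2.01). All 3 Gata genes with a region, Gata4 (1.85), Gata2 (2.01) and Gata5 (2.07), were higher too; they direct blood and endoderm fates. Other homeobox genes were higher at 83 of 89 (median 1.95). The exceptions included Nanog, a core pluripotency factor, with total H3K4me3 of 0.71 and 0.42, K4-K27 of 0.63 and 0.14 and a difference of −0.18 (95% interval −0.74 to 0.38).

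Sox genes split by family member. Of 17 with a region, 13 were higher, led by Sox3 (2.41), an early neural gene, and Sox18 (2.26), a gene of vessels and lymphatics, and including Sox21 (1.88), Sox6 (1.59) and Sox17. Sox2, which ES cells express, had total H3K4me3 of 1.32 and 0.91 and K4-K27 of 1.13 and 1.08; these overlap, and the difference was −0.01 ± 0.22 (95% interval −0.43 to 0.42). Sox21, at 1.25 and 0.94 in total H3K4me3, began at the level of Sox2 but stood at 3.08 and 2.87 in K4-K27. Sox15 had a difference of −0.81 (adjusted p = 0.1).

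Forkhead genes divided evenly, with 16 of 32 higher and a median of 1.03. Foxd1 (2.59) and Foxe3 (2.58), genes of kidney and lens development, led them, and the values at Foxr1 (−0.49) and Foxh1 (−0.15), a partner of SMAD proteins in early embryos, were not called. T-box genes were higher at 7 of 11 (median 1.70): Tbx18 (2.42) and Tbx21 (2.38) led, while Mga (−0.17) and Tbx6 (−0.97, adjusted p = 0.32) were not called. Of the bHLH genes of neural, muscle and other tissues 22 of 29 were higher (median 1.82), from Atoh8 (2.53) and Bhlhe22 (2.52) down; Myog, a muscle gene, had 0.22 ± 0.62 with values on both sides of its total H3K4me3.

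Ligands and receptors of developmental signalling followed. Wnt ligands and Frizzled receptors were higher at 21 of 25 (median 1.73). Wnt5b (2.74) and Wnt2b (2.64) led, and the receptor gene Fzd5 was not called (0.15, 95% interval −0.26 to 0.56). Of the BMP, GDF and FGF ligands 25 of 38 were higher, led by Bmp2 (2.49) and Bmp6 (2.37). Gdf15, a stress-responsive member, had −0.70 with an adjusted p of 0.04, short of the fold for a call.

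Most genes of neuronal wiring and excitability showed the same direction. Axon guidance genes were higher at 42 of 62 (median 1.52), with Plxnd1, a semaphorin receptor (2.71), and Unc5c, a netrin receptor, at the top. Potassium channel genes, a list that also holds the RNAs Kcnmb4os1, Kcnmb4os2 and Kcnq1ot1, were higher at 49 of 74 (median 1.66), led by Kcnc4 (2.68) and Kcnk9 (2.66). Glutamate and GABA receptor genes were higher at 28 of 36 (median 1.84). The lowest member of the 3 lists, Kcnk18, had −1.98 ± 1.07 from 17 and 1 reads in K4-K27 (adjusted p = 0.18), and was not called. Robo4, the lowest axon guidance gene, was negative in both clones (−0.92 and −1.95). It was not called either (−1.44, limma adjusted p = 0.15).

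**Figure D4:**
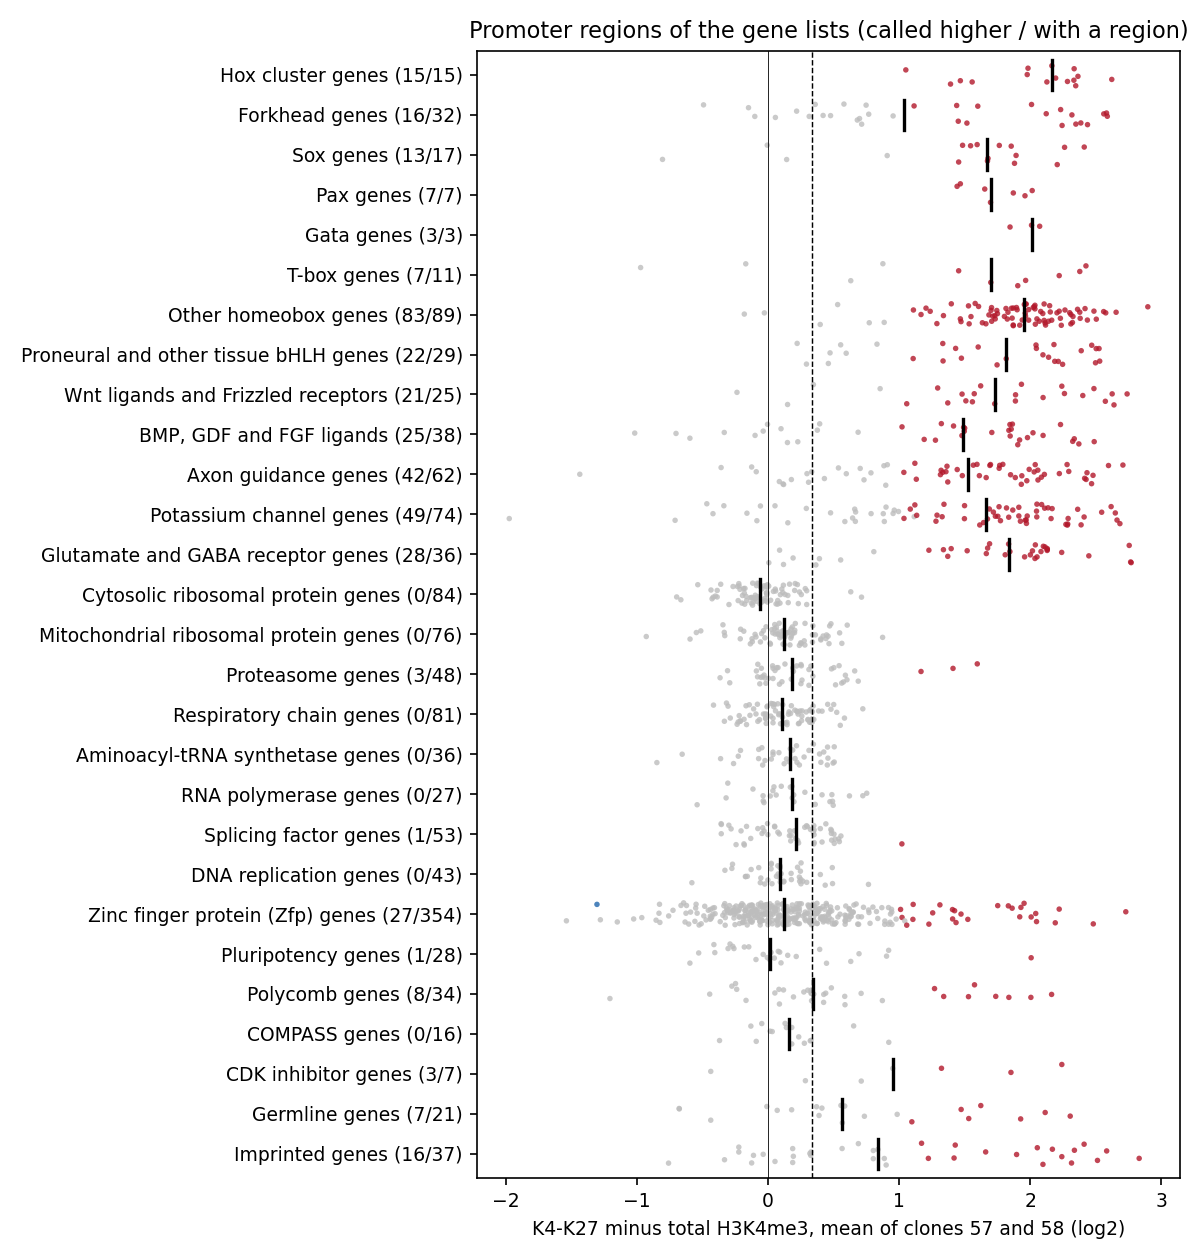
Difference between K4-K27 and total H3K4me3 (x axis, log2, mean of clones 57 and 58) at the promoter region of each gene of 28 lists (y axis), in red where called higher, blue where called lower and grey otherwise; black bars mark list medians and the dashed line the median of all genes (0.33). The developmental lists have medians from 1.03 to 2.16, and the housekeeping lists from −0.06 to 0.21.

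Housekeeping promoters kept close to the median region in the clones. Cytosolic ribosomal protein genes had 0 of 84 higher and a median of −0.06; of mitochondrial ribosomal protein genes 0 of 76, respiratory chain genes 0 of 81, aminoacyl-tRNA synthetases 0 of 36, RNA polymerase subunits 0 of 27 and DNA replication genes 0 of 43 were higher. Over all 448 housekeeping genes 69 were above 0 at an unadjusted p under 0.05 in limma, and 4 were called higher with voom weights. Gapdh, a glycolytic enzyme used as a primer control, had total H3K4me3 of 1.82 and 1.32 and K4-K27 of 1.35 and 1.58; the ranges overlap and the difference was −0.10 (95% interval −0.49 to 0.29). In E14 cells, whose table is centred on its own regions, the cytosolic ribosomal protein genes had medians of −0.94 and −0.85 in the 2 replicates.

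The 4 housekeeping-list members that were higher were singled out after their values were seen. Psmb8 (1.41), Psmb9 (1.17) and Psmb11 (1.59) encode the catalytic subunits of the immunoproteasome and, for Psmb11, of the thymic proteasome, which replace the constitutive ones in immune cells. The fourth, Srsf12 (1.02), is a splicing factor of the SR family. Total H3K27me3 was 3.23 and 2.37 at Psmb8, and Psmb11 rests on 39 and 23 reads in K4-K27.

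Pluripotency genes were nearly all uncalled. Of 28, 1 was higher and the median was 0.02; Pou5f1, the gene of OCT4, had total H3K4me3 of 1.52 and 1.14 and K4-K27 of 1.06 and 0.77 (difference −0.41, adjusted p = 0.16). The exception was Esrrb, an orphan nuclear receptor of the naive state, at the region chr12:86420701-86423400 around 1 of its start sites. There total H3K4me3 was 0.47 and 0.65, K4-K27 2.55 and 2.58, and the difference 2.01 ± 0.20 (adjusted p = 2.9e-22). Klf4, another pluripotency factor, had K4-K27 of 2.35 and 2.39 over 1.68 and 1.22, a difference of 0.92 that passed the adjusted p (2.7e-05) but not the fold.

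Polycomb genes were higher at 8 of 34 (23.5%, median 0.34, beside 21.1% and 0.33 over all genes), among them Cbx8 (1.74) and Bmi1 (2.00), components of Polycomb repressive complex 1, and Yaf2, Phf19, Phc2, Scmh1 and Pcgf5. The main limma fit called none lower, with a lowest value of −1.21, whereas voom weights gave 8 higher and 1 lower. The core subunits of complex 2 were not called, at 0.58 for the methyltransferase gene Ezh2 (adjusted p = 0.018, under the fold), 0.48 for Eed and 0.42 for Suz12. Of the COMPASS genes 0 of 16 were called by limma (2 above 0 at an unadjusted p under 0.05, and 1 called higher with voom weights), and the highest was Kmt2c at 0.92 (adjusted p = 2.9e-05).

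Among cell cycle inhibitors, imprinted and germline genes part of the members were higher. With the pluripotency genes, 26 of 92 were (28.3%, beside 21.1% of all genes). Cdkn1c (2.24), Cdkn2c (1.85) and Cdkn2a (1.32) were higher of 7 CDK inhibitors, and Cdkn1b (0.28) was not called. Imprinted genes were higher at 16 of 37 (median 0.84), led by Grb10 and Peg12 (2.58); Igf2r was higher by 1.43 and H19 was not called (0.90, adjusted p = 0.075). Germline genes were higher at 7 of 21 (median 0.57), with Tdrd6 (2.30) and Tdrd7 (2.11), genes of germ granules, at the top. Of zinc finger protein (Zfp) genes, a large family with many KRAB repressors, 27 of 354 were higher and 1, Zfp572, lower (−1.31), with a median of 0.12.

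The 13 qPCR loci of the study whose gene had a promoter region were read separately. Each was read at the promoter region of its gene. The primer positions were not mapped, so an assayed site may lie elsewhere. The study used Klf4, Dppa2, Dppa4 and Gapdh as controls with H3K4me3 alone, Gm6116 and Meis2 as controls with H3K27me3 alone, and the others, Rnf149 among them, as bivalent loci. The genes Colgalt2, Mfsd4a (taken for a locus that the primer list spells Pfsd4a), Pou4f1, Dlx3, Lmo1, Csf1, Sox6 and Meis2 were higher, from 1.47 (Meis2) to 2.12 (Colgalt2 and Mfsd4a). Colgalt2 had total H3K4me3 of 1.07 and 0.52 and K4-K27 of 2.82 and 3.01. Klf4, Rnf149 (0.43, adjusted p = 0.11), Dppa2 (−0.29), Dppa4 (−0.53) and Gapdh were not called. Gm6116, Mcmdc2 and Tlx1 had no region at their promoter in this table.

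Regions called lower were small, poor in CpG and thinly read. Their median K4-K27 count was 1 read in each clone, against 320 and 235.5 at regions called higher, and 149 of the 463 (32.2%) had no read in either K4-K27 library. Since the table enters an empty region as 0.9 reads, the fitted difference there is set by that entry and by the total H3K4me3 count, and is no measure of how far the signal fell. The table holds H3K4me3 regions of these same WT clones, so total H3K4me3, the side that stands higher at a loss, also bears on which regions are in it. The part of this choice of regions in the losses was not tested. Of the 463, 100 had a mean value above the lower quartile of all regions, and 14 of these met the other conditions for a named promoter.

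Elmo3, a gene of cell engulfment and motility, had the largest loss among the named promoters. Its total H3K4me3 was 0.27 and 0.15, and its K4-K27 −0.47 and −3.65 in clones 57 and 58, from 34 and 3 reads. The clones therefore disagreed on the size, with differences of −0.73 and −3.80. The fitted difference was −2.27 ± 0.71 (limma adjusted p = 0.0086). That error comes from the spread pooled over regions and does not measure this disagreement. Mcf2l, which encodes a guanine nucleotide exchange factor, showed the opposite order of clones, with K4-K27 of −2.55 and −0.92 over total H3K4me3 of 0.15 and 0.04 (−1.83).

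Tep1, which encodes a telomerase-associated protein, was the most even of the larger losses. Its total H3K4me3 was 0.16 and 0.09, and its K4-K27, from 14 and 10 reads, differed from these by −1.65 and −1.75 (−1.70 ± 0.63, adjusted p = 0.036). Acot7, an acyl-CoA thioesterase whose promoter is printed above, had 0.37 and 0.39 in total H3K4me3 and −0.41 and −1.30 in K4-K27 (−1.23 ± 0.46, adjusted p = 0.035). Ifitm1, an interferon-induced membrane protein gene, had 68 and 91 K4-K27 reads, with a difference of −1.16 (adjusted p = 0.028).

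The other named losses were Gpx8 (−1.61), Mindy4 (−1.30), Mbnl2 (−1.17), Creb3l4 (−1.16), the multicopy histone gene H3c15 (−1.15), Traf3ip2 (−1.12) and Gng2 (−1.08). Clones 57 and 58 lay far apart at Mbnl2 (−0.17 and −2.17) and Creb3l4 (−0.08 and −2.24). At H3c15, reads that match near-identical copies equally well can fall below the mapping quality limit of the counting. None of the 12 was called in the DKO clones, where their differences lay between −0.66 (H3c15) and 0.42 (Mindy4), and none overlapped an H3K27me3 region. Their adjusted p ran from 0.0086 to 0.049. Leaving out either total H3K4me3 library ended all 12 calls. Away from promoters the 5 largest losses among regions with a mean above the lower quartile had 0 to 33 reads in a K4-K27 library, and included regions near Sfpq (−2.07), Hes5 (−2.04) and Syt3 (−2.01) and within Ddah1 (−1.99).

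The contrast was repeated in the DKO clones, which share no library with the WT clones. There 3138 regions were higher (9.83%) and 435 lower (1.36%), and at the gene level 2667 were higher (16.9%) and 16 lower (0.101%). These counts rested on single libraries: the count higher was 11 without total H3K4me3 of clone 43, 404 without that of clone 53, 3028 without K4-K27 of clone 43 and 4718 without K4-K27 of clone 53, and the count lower 0, 0, 2226 and 4003 in that order. Of the 4016 regions higher in WT, 2749 (68.5%) were called higher in DKO, and 3692 (91.9%) were above 0 in both DKO clones, where 34.2% of all regions were. Of the 463 lower in WT, 20 were called lower and 2 higher in DKO, with a median difference of −0.50. The deposited table was drawn up on H3K4me3 regions of the WT clones.

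The DKO minus WT difference of the contrast was higher at 3 regions (0.00939%) and lower at 1 (0.00313%) by limma. At the 1267 regions higher in WT that were not called in DKO, median total H3K4me3 was 0.65 and 0.39 in clones 57 and 58 and −0.81 and −0.50 in clones 43 and 53, and median K4-K27 was 1.97 and 1.93 against 0.31 and 0.09. The median difference between them was 1.32 in WT and 0.77 in DKO. These regions were picked for having no DKO call, which by itself makes the DKO difference smaller, and 1 of the 1267 passed the test between genotypes. Tdrd6 shows this at 1 gene. Its difference was 2.30 in WT and 0.41 in DKO, from K4-K27 of −1.77 and −1.55 over total H3K4me3 of −2.46 and −1.67 in DKO, and the difference between genotypes did not pass the test (−1.90, adjusted p = 0.24).

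Csf1, a macrophage growth factor gene, and Ddx4, a germ cell helicase gene, had the same form. Csf1 had a difference of 1.61 in WT and 0.22 in DKO (between genotypes −1.39, adjusted p = 0.61). For Ddx4 the values were 1.47 and −0.56 (between genotypes −2.03, adjusted p = 0.69). The promoter regions of the targeted genes do not check the labels, since total H3K4me3 in clones 43 and 53 was 0.49 and 0.10 at Dppa2 and 0.81 and 0.32 at Dppa4, against 0.02 and −0.19 and 0.46 and 0.49 in clones 57 and 58, and the deleted parts are not given in the labels.

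E14 cells gave a further repeat, on the 17084 WT clone regions that overlap a region of their own table. Of 2629 regions called higher in the WT clones, 2628 were above 0 and 2502 (95.2%) above 1 in both E14 replicates, where 43.7% and 23.3% of all matched regions were. Their median differences were 2.82 and 2.16, and at the same regions 1.52 and 1.74 in clones 57 and 58; the E14 centring rests on another set of regions. Of 126 matched regions called lower, 107 (84.9%) were below 0 in both E14 replicates, where 45.3% of all were, and 22 (17.5%) were below −1 in both, where 6.12% of all were.

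**Figure D5:**
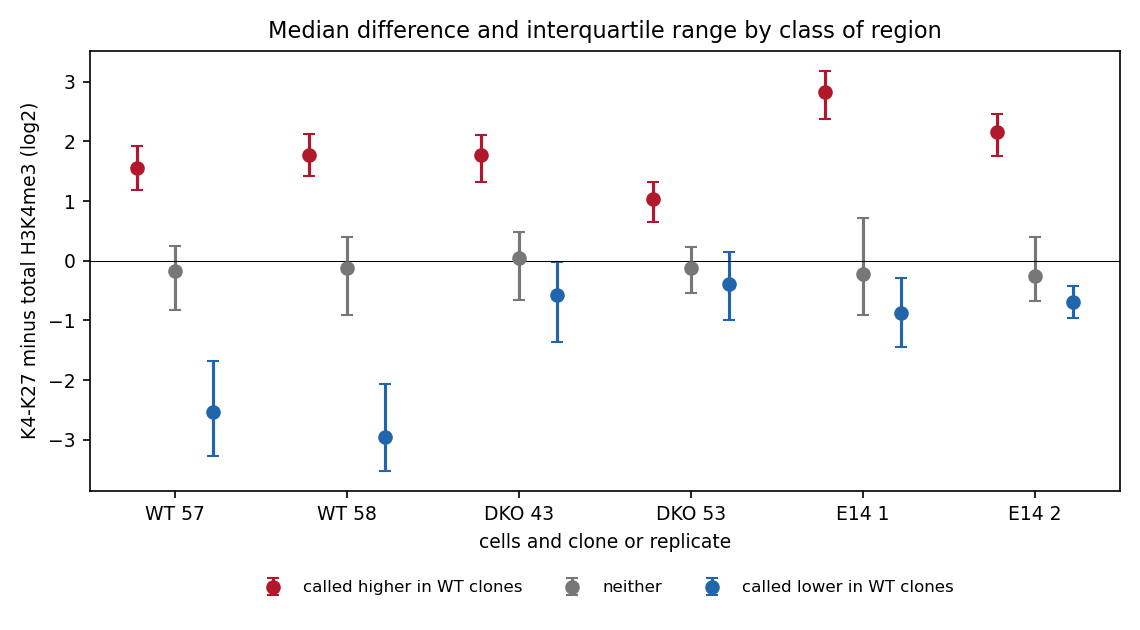
Median (points) and interquartile range (bars) of the difference between K4-K27 and total H3K4me3 (y axis, log2) in each clone or replicate (x axis), for regions called higher (red), lower (blue) or neither (grey) in the WT clones. Regions called higher in WT have medians of 1.76 and 1.03 in the DKO clones and 2.82 and 2.16 in E14, whereas those called lower lie near −0.58 and −0.39 in DKO and −0.87 and −0.69 in E14.

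Among the named promoters, 8 of the 12 largest gains overlap an E14 region. Ank1 had differences of 3.93 and 3.01 in the E14 replicates, and Grb10 3.17 and 2.38, the lowest of the 8. In the DKO clones all 12 were called higher, from 1.54 (Rbm46) to 2.32 (Nkx2-4). Over the developmental lists 284 of 438 genes were higher in DKO, where 331 were in WT; the Hox genes were higher at 14 of 15 and the Pax genes at 7 of 7.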

How the data were processed

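K4-K27 reChIP and in-line total H3K4me3 were compared in WT clones 57 and 58, paired by clone, over every region of the deposited WT clone H3K4me3 table. The authors deposited log2 values, library-scaled RPM per kb of region from SeqMonk 1.48.1 on the mouse GRCm38 build. Reads with a mapping quality above 20 were counted, extended by 200 bp, with duplicates kept, and 0 reads appear as 0.9. The study called peaks with EPIC2, but how the regions of this table were drawn up is not given in the sources used here. The submitters' processing notes also name Trim Galore 0.6.6, BWA 0.7.13, Picard 2.6.0, SAMtools 1.9, MACS2 and deepTools 3.5.0. Whole reads were recovered for 100% of values within 0.05, and 8 columns that match no sample of the series were not used. Counting error limits regions with few reads.

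Each library was centred on its median over the 31935 regions. limma 3.58.1 (R 4.3.3) was fitted with the clone as a block and eBayes with trend and robust, and p-values were adjusted over all regions by Benjamini-Hochberg. A call needed an adjusted p under 0.05 and a log2 difference above 1; standard errors and 95% intervals come from this fit. The blocking follows from the protocol, in which the total H3K4me3 portion was taken from the same clone's first pull-down; the clones' deviations in the 2 kinds of library had r = 0.13 in WT and in DKO. The DKO contrast was fitted alike, and the difference between genotypes as an interaction. The script was tested on simulated data. CpG content was read from the GRCm38.p6 genome.

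Named promoters are the 12 largest called differences in each direction at promoters of protein-coding genes (symbols in Gm or Rik left out), with the same sign in both clones and a mean above the lower quartile, the 5 largest in each direction elsewhere, the qPCR loci, and the 2 highest and 2 lowest members of each of 28 gene lists. Sox21, Sox17, Pou5f1, Psmb9, Ezh2, Suz12, Eed, Cbx8, Cdkn2a, Igf2r, H19, Ddx4 and the other Polycomb genes called higher were added after their values were seen. Some named genes and regions are not reported here. Members and lists were chosen with earlier results of these data known. Promoter sequences were matched for 12232 of 15767 genes (77.6%), a share taken as too low to compare CG counts between classes. Alternatives covered the block, the centring, filters, the variance model, thresholds, voom weights, a joint fit and leaving out each library.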

Additional observations from a re-analysis of the deposited data

Results flagged for a closer look

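The difference between K4-K27 and total H3K4me3 was set against that in the DKO clones by an interaction term in limma, and 4 regions passed it. Among them, the region near Apaf1 (chr10:91028101-91028400) had a DKO minus WT difference of 4.68 (adjusted p = 0.0073), from 0 reads in both WT K4-K27 libraries. The region near Tmem70 had 4.30 (adjusted p = 0.046), from 0 and 1 reads. Both are 300 bp wide and rest on few reads. The region near Gm1979 (chr5:26006551-26007900) had −3.19 (adjusted p = 0.012). There WT K4-K27 stood at 3.26 and 3.03 over total H3K4me3 of 1.49 and 1.14, while in DKO K4-K27 was −4.14 and −2.94 and total H3K4me3 −2.61 and −1.75. None of the 4 passed without the replicate block.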

How the results depend on the processing

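The count of losses varied more with the processing than the count of gains. The 4016 regions higher in WT became 2602 without centring (median of all regions −0.28), 1995 with quantile normalisation, 8874 centred on the lower quartile (which moved the median of all regions from −0.09 to 0.55), 1008 above a difference of 2, 6221 by adjusted p alone and, in an alternative chosen after seeing the data, 2635 over regions that overlap an E14 H3K4me3 region. Without trend and robust it was 0 in limma, with 3962 at an unadjusted p under 0.05 past the fold. Leaving out each library, in a fit without the clone term that takes the lone sample of an arm to vary like the other group, gave 3264 to 4496. Without the replicate block, that is without the pairing by clone, 3971 were higher, all shared with the paired fit, and 252 lower instead of 463, of which 199 were shared. The count lower was 172 without centring, 78 on the lower quartile, 223 without the lowest quartile of mean values, 2006 with all clone libraries in 1 fit, 251 over regions that overlap E14 ones and 0 without trend and robust (3612 unadjusted), and 5 to 5387 when each library was left out. Voom weights on the recovered reads gave 386 lower, of which 112 were shared. Quantile normalisation gave 336 lower, of which 82 were shared, and regions 1 kb or wider gave 453, of which 143 were shared. The losses called therefore changed identity more than their count shows. In DKO the count higher was 0 without trend and robust (3637 unadjusted), 239 above a difference of 2 and 11 to 4718 with each library left out, against 3138. The count lower, 435, was 94 without the replicate block, 757 without centring, 139 on the lower quartile, 0 without trend and robust (2522 unadjusted), 217 above 2, 79 with voom weights and 0 to 4003 with each library left out. The interaction counts of 3 and 1 became 0 and 0 without the block or without trend and robust, and the lower count 4 without centring. The share of regions called higher at promoters was 76.7% with a window of 500 bp and 84.5% with 5 kb, that of regions called lower 19.7% with 5 kb, and 66.9% of regions called higher overlapped an H3K27me3 region by at least 50% of the shorter one. Of 90 named promoters and regions called, none changed sign under any alternative; of 73 not called, 52 changed sign under at least 1 and 38 were called under at least 1. The cause of these changes was not tested. All 12 named gains kept their call except without trend and robust, where none did, and over regions overlapping E14, where the 8 tested did; the 12 named losses kept between 0 and 12. The losses had a median K4-K27 count of 1 read in each clone, and the part of read depth in these changes was not tested.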
